A study of Rattus norvegicus with 196 samples.

Results

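Grin2c and Grm3 encode glutamate receptor proteins, and their transcripts were followed by RNA-seq of micro-punched tissue from 25 regions of the rat brain after long-term fluoxetine. Both were found by name among the transcripts that the study lists as changed by fluoxetine in several regions, and that list is the only source of gene names used here: it gave a name to 1845 of the 29188 transcripts counted. Grin2c was counted as ENSRNOT00000004477 and Grm3 as ENSRNOT00000007572, so the report covers 2 of 29188 transcripts. Because the naming list was itself made from fluoxetine against control contrasts in these samples, a difference called for either gene below is not independent evidence of that difference. The counts of 1 transcript per gene say nothing of its other isoforms, and the files carry no coordinates.

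The animals were naive male Long-Evans rats aged 2 months at the start, housed in pairs. The fluoxetine group (FT) received 18 mg/kg/day in the drinking water for 6 weeks and the Sham group water alone. No group was stressed, so the Sham group is a healthy control and not a model of depression. Each sample pooled the punches of 1 region from 10 animals, with 40 animals per group, and the pools carry the replicate numbers 1, 3, 4 and 5. There were 98 FT and 98 Sham samples. FT and Sham samples of one replicate number were processed in parallel and are called a pair, and regions of the same number can come from the same animals. The medial preoptic area (mPoA) had 4 Sham but 2 FT samples (replicates 4 and 5), and the arcuate nucleus (Arc) had 4 FT but 2 Sham samples (replicates 4 and 5), so that each had 2 complete pairs. The replicate 1 pair of the cingulate cortex (CGC) was left out of the tests within regions.

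NMDA receptors are glutamate-gated cation channels that open only when a co-agonist, glycine or D-serine, is also bound. They are built from an obligatory GluN1 subunit and from GluN2 subunits that set the channel's properties, and Grin2c encodes GluN2C, a subunit with a weak magnesium block that is best known from cerebellar granule cells and is also found in the thalamus and in astrocytes. Grm3 encodes mGlu3, a metabotropic receptor that couples to inhibitory G proteins and lowers cyclic AMP, and is found on neurons and, prominently, on astrocytes.

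Library totals ranged from 4586 to 50893913 transcript counts with a median of 11921178, and the 2 smallest were those named below. Grin2c was a sparse transcript, with 0 to 689 counts per library and a median of 166. Grm3 was counted more deeply, with 0 to 5662 counts and a median of 806. Both genes were at 0 in the Sham replicate 3 library of the nucleus of the solitary tract (Nts), where 0 of 4586 counts allows up to 654 CPM (counts per 1e6 counts of the library), so that library carries no information on either gene. In the Sham replicate 3 library of the infralimbic cortex (ILC), Grin2c had 1 count and Grm3 had 6. Replicate 3 libraries were shallower than the others, with a median total of 6733740 in FT and 5759060 in Sham, and their 50 most abundant transcripts took a median of 67.7% and 68.6% of the counts, against 28.2% to 37.5% for the other replicate numbers.

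The first question was where in the untreated brain the transcripts were found. Levels are given as CPM after TMM scaling over all Sham samples, and are compared between regions for one gene at a time, since transcript lengths were not at hand. Both genes were detected in every region, Grin2c over a 5.07-fold range of fitted levels and Grm3 over a 3.46-fold range. Grin2c was highest in the dorsomedial thalamus (MDT), the locus coeruleus (LC) and the periaqueductal grey (PAG), and lowest in the prelimbic cortex (PLC), the ventromedial hypothalamus (VMH) and Arc. Grm3 had a different order, with the accumbens core (NAcC), the bed nucleus of the stria terminalis (BNST) and the accumbens shell (NAcSh) at the top and PAG, LC and Arc at the bottom. PAG and LC thus stood among the 3 highest regions for the NMDA receptor subunit and among the 3 lowest for the metabotropic receptor.

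Grin2c in Sham MDT measured 18.7, 24.3, 27.7 and 22.6 CPM in replicates 1, 3, 4 and 5, with a mean of 23.3 ± 3.76 (SD, n = 4). In LC the same replicates gave 26.7, 25.2, 14.3 and 22.5 CPM, and in PAG 25.1, 21.7, 16.3 and 17.5 CPM. These 3 regions overlapped each other throughout. At the other end, VMH gave 6.60, 7.50, 6.04 and 6.33 CPM, PLC 8.28, 6.21, 6.77 and 8.04 CPM, and the 2 Arc samples 4.62 and 3.45 CPM. No sample of the lowest 3 regions reached the lowest sample of the highest 3. The regions were ranked by these same samples, so this separation was partly built in.

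Grm3 in Sham NAcC measured 101, 58.7, 119 and 102 CPM in replicates 1, 3, 4 and 5 (mean 95.1 ± 25.6, SD, n = 4). NAcSh ranged from 37.7 in replicate 3 to 170 in replicate 4, and BNST from 48.7 to 135 CPM in the same replicates. In PAG the 4 values were 35.6, 18.4, 60.9 and 59.4 CPM, in LC 21.2, 25.2, 52.7 and 51.2 CPM, and the 2 Arc samples gave 39.6 and 35.0 CPM. The spread of Grm3 within a region was large and had a common shape, low in replicate 3 and high in replicates 4 and 5. Within regions, the coefficient of variation of the Sham samples had a median of 37.0% for Grm3 and 22.4% for Grin2c.

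In one edgeR quasi-likelihood fit over all Sham samples with the replicate number as a block, the level differed between regions for both genes (adjusted p = 2.08e-09 for Grin2c and 1.28e-12 for Grm3, Benjamini-Hochberg), as it did for 75.6% of the 16977 transcripts tested. MDT exceeded Arc by 2.34 ± 0.38 (SE) on the log2 scale for Grin2c (adjusted p = 2.17e-06), and NAcC exceeded Arc by 1.79 ± 0.26 for Grm3 (adjusted p = 1.50e-07). For Grm3 both calls depended on the block, with adjusted p = 0.160 and 0.150 without it. No pair of neighbours in either order was called different, and none had an unadjusted p under 0.05. The largest step between neighbours was 0.50 ± 0.36 for Grin2c, from VMH to Arc (adjusted p = 0.691), and 0.39 ± 0.25 for Grm3, from LC to Arc (adjusted p = 0.314). The ends were picked as the highest and lowest of the same fitted levels, so the p-values between them are too small. The orders are therefore gradients in which the level differed between regions, while neighbours were not called different.

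**Figure D1:**
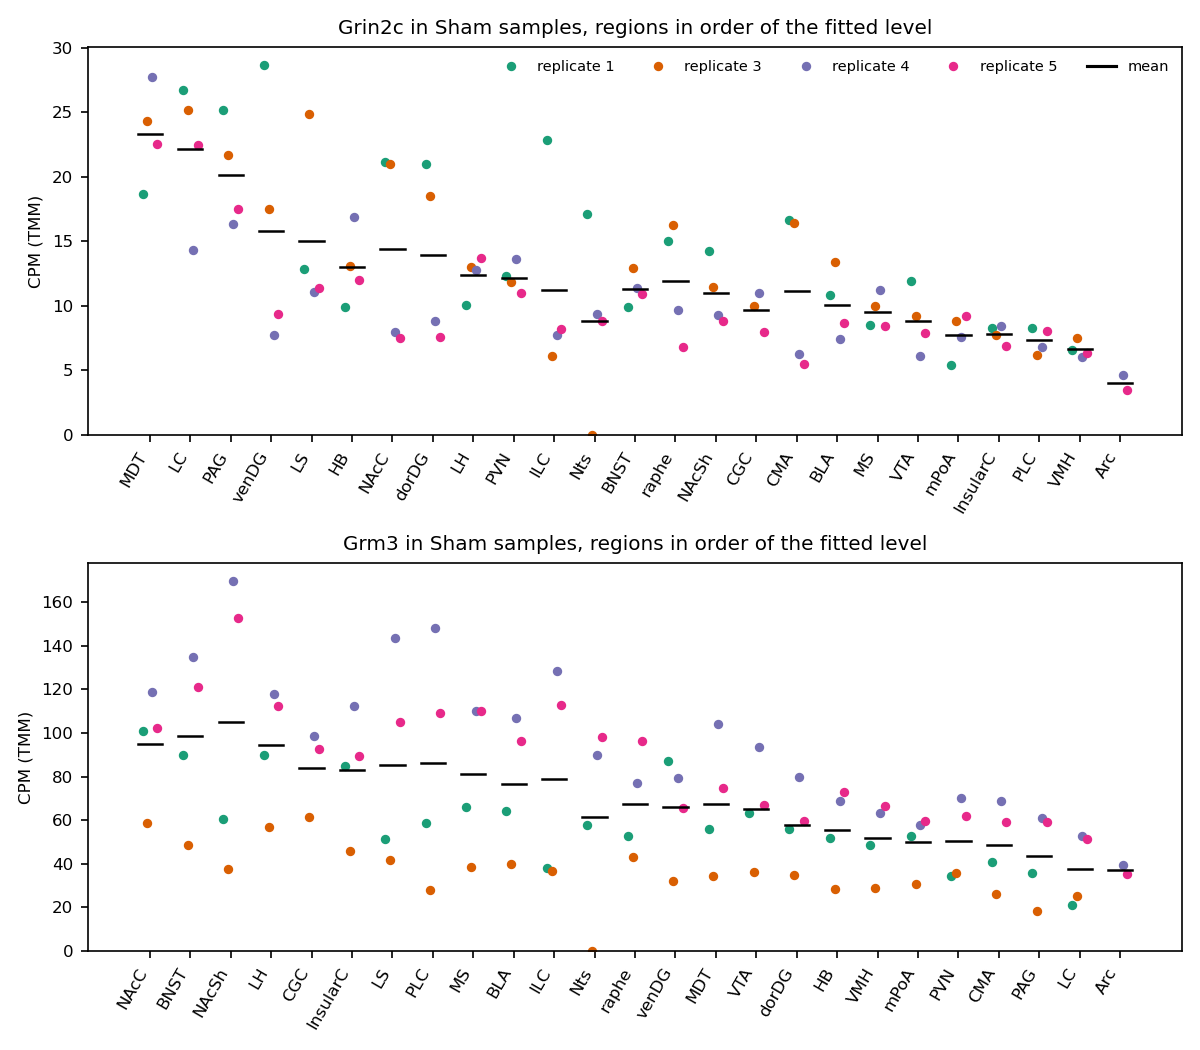
Grin2c (top) and Grm3 (bottom) in each Sham sample, in CPM after TMM scaling over all Sham samples. Not named elsewhere are CMA (centromedial amygdala), dorDG (dorsal dentate gyrus), InsularC (insular cortex), LH (lateral hypothalamus), LS and MS (lateral and medial septum), PVN (paraventricular nucleus) and VTA (ventral tegmental area). Points are samples coloured by replicate number, bars are means, and regions are ordered by the fitted level, which adjusts for replicate number. Grin2c falls from a mean of 23.3 in MDT to 4.03 in Arc, while for Grm3 replicates 4 and 5 lie above replicates 1 and 3 in nearly every region.

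The order of regions was similar in the treated animals. Over the 25 regions, the fitted FT and Sham levels correlated with Pearson r = 0.78 for Grin2c (Spearman rho = 0.72) and r = 0.87 for Grm3 (rho = 0.88), the regions sharing pools and libraries of the same depth. In FT the 3 highest regions for Grin2c were PAG, MDT and the habenula (HB), and for Grm3 PLC, NAcC and BNST. Grin2c and Grm3 themselves correlated weakly over the 25 Sham means (r = 0.33). Among the 1844 other named transcripts, those with the Sham profile most like that of Grin2c were Hsd17b8 (r = 0.87), Spsb3 (0.86), Fam207a (0.86), Zfp358 (0.86) and Rxrb (0.86). For Grm3 they were 9330182L06Rik (0.89), RGD1563441 (0.85), Omg (0.85), Csrnp3 (0.84) and Immp1l (0.84). Omg encodes a myelin-associated glycoprotein and was on the oligodendrocyte marker list used below. These names were unstable: with the FT samples in place of Sham, 1 of the 5 remained for each gene.

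The main question was how fluoxetine changed the 2 receptor transcripts. Grin2c was higher in FT than in Sham in 23 of 25 regions and Grm3 was lower in 23 of 25, by edgeR fits within regions with the replicate number as a block. The paper lists Grm3 with the receptors it describes as upregulated, in a few regions, which is the opposite direction. The median log2 fold change over regions was 0.59 for Grin2c and -0.43 for Grm3, while the median over all transcripts within a region lay between -0.05 and 0.05. Few of these differences passed the test within a region, which asked for a log2 fold change of at least 0.32 and an adjusted p of at most 0.1. In a bulk sample, fewer cells of a type and less RNA per cell cannot be told apart.

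edgeR called Grin2c in 0 of 25 regions, against 1.01% of all transcript-by-region tests called higher in FT. Of the 3394 calls behind that share, 3318 were in mPoA, the raphe, Arc and Nts, and 15 of 25 regions, HB, VMH, BLA and PAG among them, had no transcript called higher at all. The unadjusted p of Grin2c was under 0.05 in 14 regions, against 14.0% of all tests, and the smallest adjusted p was 0.115, in the raphe, where the log2 fold change was 0.64 ± 0.20 (SE, as for each fold change below). DESeq2, the tool of the original study, was run anew here. It called Grin2c higher in 4 regions (VMH, the basolateral amygdala or BLA, HB and PAG), against 2.58% of its tests, and gave no adjusted p in 2 regions. The paper itself reports Grin2c upregulated in more regions than these.

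In HB, where the edgeR change was the largest, Grin2c measured 31.4, 24.9, 23.7 and 24.9 CPM in FT replicates 1, 3, 4 and 5, and 10.0, 14.6, 18.7 and 13.4 CPM in Sham (CPM scaled within the region from here on). All FT samples lay above all Sham samples, as they did for 0.972% of all transcripts in HB. The log2 fold change was 0.92 ± 0.25 by edgeR, or 1.89-fold (adjusted p = 0.419), and 0.95 ± 0.29 by DESeq2 (adjusted p = 0.0760). DESeq2 called 1.55% of its transcripts higher in HB.

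In PAG, Grin2c was at 36.4, 41.5, 27.5 and 43.5 CPM in FT and at 24.9, 22.8, 16.0 and 17.6 CPM in Sham. The groups did not overlap, and FT was higher in each pair. All FT samples lay above all Sham samples for 0.837% of transcripts in PAG. The edgeR log2 fold change was 0.88 ± 0.19 (adjusted p = 0.253) and the DESeq2 one 0.89 ± 0.24 (adjusted p = 0.0264), in a region where DESeq2 called 1.15% of transcripts higher. The summed level of 4 cerebellar granule cell markers also lay higher in every FT sample of PAG, at 510 to 637 CPM against 152 to 369 CPM in Sham, and its part in the Grin2c difference was not tested.

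VMH, one of the lowest regions for Grin2c in Sham, gave 13.8, 15.7, 9.85 and 10.9 CPM in FT against 6.13, 8.12, 6.05 and 6.41 CPM in Sham, again without overlap. The counts behind these values were 52 to 243 in FT and 19 to 115 in Sham. The difference was 0.89 ± 0.26 on the log2 scale by edgeR (adjusted p = 0.291) and 0.95 ± 0.32 by DESeq2 (adjusted p = 0.0677), where DESeq2 called 3.63% of transcripts higher.

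In BLA the FT samples measured 18.2, 21.8, 10.8 and 14.6 CPM and the Sham samples 9.95, 14.1, 7.10 and 8.45 CPM. Here the groups overlapped, although FT exceeded Sham in every pair. The log2 fold change was 0.73 ± 0.19 by edgeR (adjusted p = 0.251) and 0.73 ± 0.23 by DESeq2 (adjusted p = 0.0909), against 0.977% of transcripts called higher by DESeq2 in BLA.

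LC was the exception in direction. Grin2c there measured 8.03, 10.1, 22.3 and 17.9 CPM in FT replicates 1, 3, 4 and 5 and 22.5, 23.9, 13.6 and 21.8 CPM in Sham. FT was lower in replicates 1, 3 and 5 and higher in replicate 4, and the groups overlapped. The log2 fold change was -0.54 ± 0.37 (adjusted p = 0.519, edgeR), and it was not called. It ranged from -0.17 without replicate 1 to -0.98 without replicate 4. The summed granule cell markers had a median of 48.3 CPM in FT and 182 CPM in Sham in LC, and the summed choroid plexus markers one of 5673 against 16900 CPM, both with overlapping groups, and their part was not tested.

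All FT samples lay above all Sham samples for Grin2c in 11 of 25 regions, against 2.48% of all transcript-by-region comparisons. CGC and Arc, with fewer samples than most regions, were among the 11, and the share there was 3.10% and 16.0%. Of the 22 regions with 4 complete pairs, FT was the higher of the pair for Grin2c in all 4 pairs in 15. How often other transcripts reach that number was not counted, so it cannot be judged against a background. A test of whether the response to FT differed between regions, fitted over 95 pairs, did not call Grin2c (adjusted p = 0.623) or Grm3 (adjusted p = 1), against 0.00578% of transcripts called, so no region's response was shown to differ from that of the others. The unadjusted p was 0.0155 for Grin2c and 0.636 for Grm3.

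**Figure D2:**
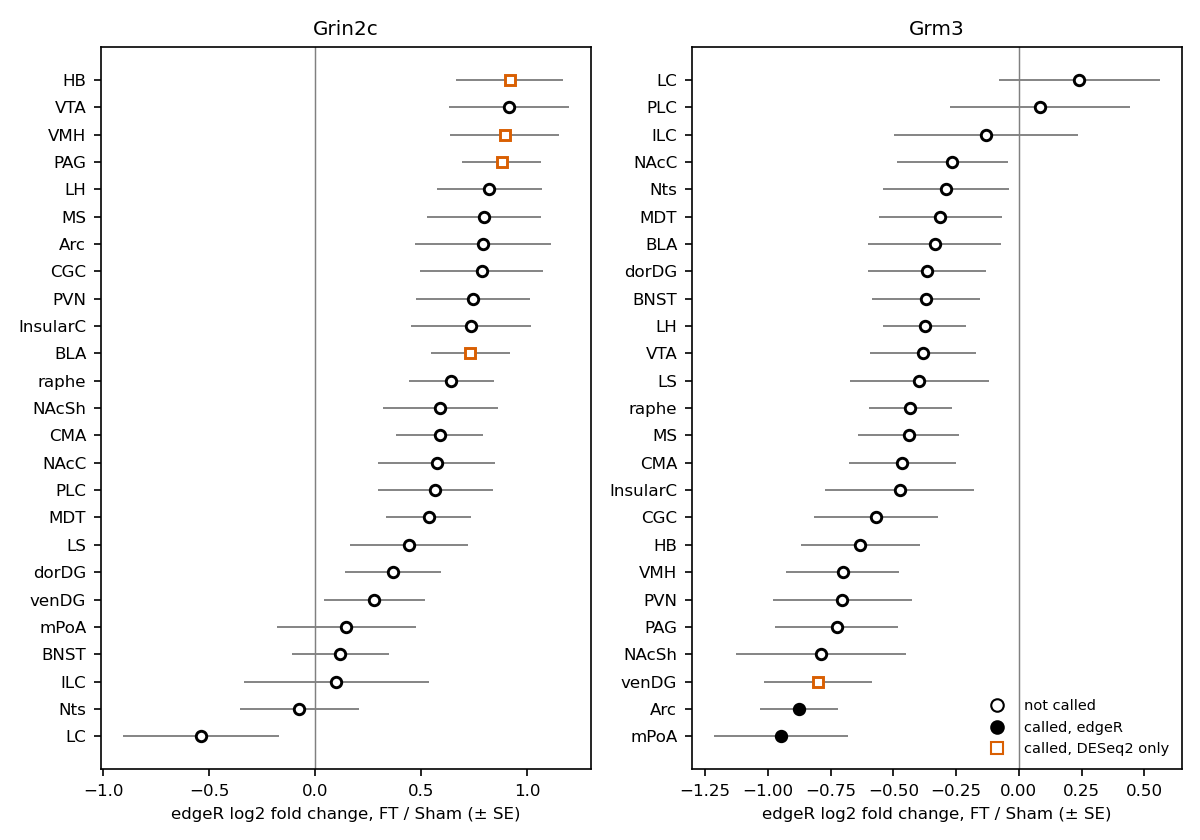
Log2 fold change of FT over Sham in each region for Grin2c (left) and Grm3 (right), from edgeR fits with the replicate number as a block, with bars of 1 SE. Filled circles are regions called by edgeR and orange squares regions called by DESeq2 alone. Grin2c is positive in 23 regions and Grm3 negative in 23 regions, with LC at the opposite end for both.

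For Grm3, edgeR called mPoA and Arc lower in FT, 2 of 25 regions, against 0.913% of all transcript-by-region tests called lower. DESeq2 called neither and called the ventral dentate gyrus (venDG) instead, 1 of 25 regions against 1.75% of its tests. Both regions called by edgeR had only replicates 4 and 5 as complete pairs, and with the block the unpaired samples add nothing to the fold change.

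In mPoA, Grm3 measured 32.5 and 40.6 CPM in FT replicates 4 and 5, and 61.1, 38.4, 68.0 and 72.3 CPM in Sham replicates 1, 3, 4 and 5. Both FT samples lay below their paired Sham samples, while the unpaired Sham replicate 3 fell between them. The log2 fold change was -0.95 ± 0.27 (adjusted p = 0.0169, edgeR), in a region where 4.74% of transcripts were called lower. DESeq2 gave -0.94 ± 0.34 (adjusted p = 0.115), and edgeR without the block -0.72 (adjusted p = 0.537). The summed astrocyte markers, listed below, were at 1680 and 1741 CPM in the FT samples of mPoA. Every Sham sample was higher (2239 to 27162 CPM). The markers did not share a direction, since edgeR called Slc7a10, which is on that list, higher there. Of all transcripts in mPoA, 11.1% had all FT samples below all Sham samples. The part of the markers was not tested.

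In Arc, Grm3 measured 24.5, 10.9, 27.2 and 20.6 CPM in FT replicates 1, 3, 4 and 5, and 46.1 and 41.3 CPM in Sham replicates 4 and 5. The groups did not overlap, but all FT samples lay below both Sham samples for 15.3% of all transcripts in Arc. The fitted log2 change was -0.88 ± 0.16 (adjusted p = 0.0267, edgeR), but 10.8% of all transcripts were called lower in Arc by the same fit. DESeq2 gave -0.89 ± 0.36 (adjusted p = 0.124), and edgeR without the block -1.05 (adjusted p = 0.509). The summed oligodendrocyte markers were also lower in every FT sample of Arc, at 470 to 636 CPM against 728 to 771 CPM in Sham. The granule cell markers, of which 2 were tested in Arc, were higher (51.6 to 91.2 against 35.7 to 37.5 CPM). So were the choroid plexus markers, of which 3 were tested (48.1 to 68.8 against 9.50 to 34.7 CPM). These ranges set FT replicates 1, 3, 4 and 5 against Sham replicates 4 and 5. The part of these markers was not tested.

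In venDG, Grm3 measured 36.8, 29.4, 39.5 and 32.8 CPM in FT and 82.4, 32.3, 73.5 and 61.4 CPM in Sham. FT was the lower of each pair, with replicate 3 nearly level. DESeq2 gave -0.82 ± 0.24 (adjusted p = 0.0410, against 0.922% of transcripts called lower) and edgeR -0.80 ± 0.21 (adjusted p = 0.338).

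LC again had the largest change in the opposite direction. Grm3 there measured 32.2, 57.2, 32.6 and 38.0 CPM in FT and 17.9, 23.9, 49.97 and 49.7 CPM in Sham replicates 1, 3, 4 and 5. FT was higher in replicates 1 and 3 and lower in replicates 4 and 5. The log2 fold change of 0.24 ± 0.32 (adjusted p = 0.763, edgeR) was not called, and turned to -0.027 without replicate 1 and to -0.049 without replicate 3.

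Across regions, all FT samples lay below all Sham samples for Grm3 in 2 of 25 regions (CGC and Arc), against 2.08% of all comparisons. Both had fewer samples than most regions, and the share of all transcripts was 3.62% in CGC and 15.3% in Arc. Of the 22 regions with 4 complete pairs, Grm3 was lower in FT in all 4 pairs in 7, a number with no count over other transcripts beside it.

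The LC values raised the question whether the response was the same in each replicate number, and the within-pair differences were therefore set out by replicate. A pair's difference is log2 CPM (prior count 2) in FT minus that in the Sham sample of the same region and replicate. Grin2c was the higher in FT in 85 of 95 pairs: 17 of 22 in replicate 1, 21 of 23 in replicate 3, 24 of 25 in replicate 4 and 23 of 25 in replicate 5. Those counted as higher include the replicate 3 pairs of Nts (6.21) and ILC (0.99), whose Sham libraries held 0 and 1 Grin2c counts. Of the 11367 transcripts tested in all regions, 1.38% were higher in FT in as many of the 95 pairs. The median difference was 0.35 in replicate 1, 0.86 in replicate 3, 0.48 in replicate 4 and 0.76 in replicate 5, so that the direction was common to the 4 pools.

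Grm3 behaved otherwise. In replicates 4 and 5 it was lower in FT in 25 of 25 pairs each, with median differences of -0.86 and -0.75. In replicate 1 it was lower in 13 of 22 pairs (median -0.09) and in replicate 3 in 10 of 23 pairs (median 0.05). The replicate 3 pairs of Nts and ILC, with 0 and 6 Grm3 counts in Sham, are among those not lower. Being lower in all 25 pairs was found for 4.59% of transcripts in replicate 4 and for 9.13% in replicate 5, and being lower in all 50 pairs of both for 2.27%. The lower Grm3 of FT was thus common to all regions in replicates 4 and 5, while in replicates 1 and 3 it was seen in part of the regions, such as VMH (24.2 against 45.1 CPM in replicate 1 and 17.2 against 31.2 CPM in replicate 3), and not at the median.

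A replicate by treatment test over the 95 pairs gave the same picture. The fitted log2 fold change of Grm3 was -0.03 ± 0.09 (SE) in replicate 1, 0.05 ± 0.09 in replicate 3, -0.83 ± 0.08 in replicate 4 and -0.78 ± 0.08 in replicate 5, and the replicate numbers differed (adjusted p = 1.03e-12, edgeR). For Grin2c the values were 0.29 ± 0.11, 0.63 ± 0.12, 0.53 ± 0.10 and 0.73 ± 0.10, all of one sign, with adjusted p = 0.0462. With RLE in place of TMM scaling the Grm3 values ran from -0.93 to -0.10 and the Grin2c values from 0.20 to 0.58, so that the small positive value of Grm3 in replicate 3 depended on the scaling. The Grin2c call was lost without Nts and ILC (adjusted p = 0.210) and without replicate 5 (adjusted p = 0.249). The replicate numbers differed in their response for 69.5% of all transcripts, and since the pairs of one number can come from the same animals, these p-values count regions and not pools and are too small.

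**Figure D3:**
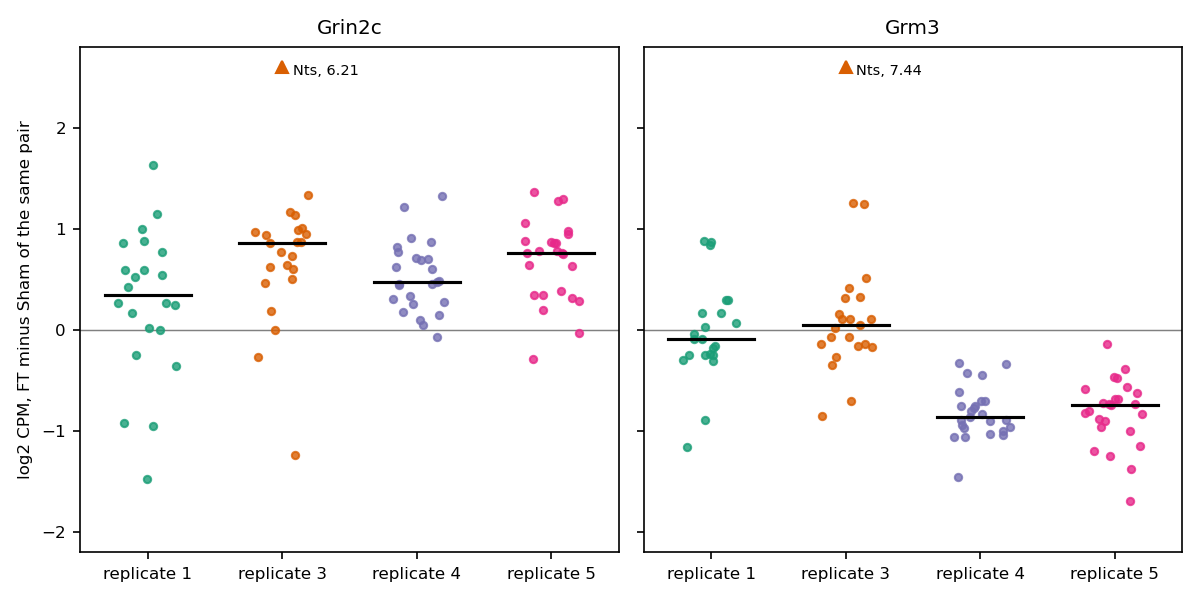
Difference in log2 CPM between the FT and Sham sample of each pair, by replicate number, for Grin2c (left) and Grm3 (right). Each point is a region and bars are medians. The 2 triangles are the Nts pair of replicate 3, off the axis at 6.21 and 7.44, whose Sham library held 4586 counts. Grin2c lies mostly above 0 in each replicate, and Grm3 lies below 0 in all 50 pairs of replicates 4 and 5.

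The replicate numbers also differed within the Sham group. In the 23 regions with 4 tested Sham samples, both replicates 4 and 5 of Sham exceeded both replicates 1 and 3 for Grm3 in 22 regions. In FT the same order was seen in 5 of the 23 regions with 4 tested FT samples. The median Grm3 level over these regions was 53.3, 36.4, 92.1 and 83.8 CPM in Sham replicates 1, 3, 4 and 5, and 54.2, 39.3, 48.2 and 45.4 CPM in FT. The FT pools therefore lay close together while the Sham pools fell into a lower and a higher pair, and the coefficient of variation within a region, on the scale of the region's own samples, was 38.2% at the median in Sham and 21.7% in FT. For Grin2c, replicates 4 and 5 were both below replicates 1 and 3 in 12 of 23 regions in Sham and in 12 of 23 in FT.

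To take the pool rather than the region as the unit, counts were summed over the 23 regions with 8 samples, which gave 1 value per pool. The sums include the CGC replicate 1 pair. Summed Grin2c was 18.5, 22.7, 14.3 and 16.4 CPM in FT replicates 1, 3, 4 and 5 and 12.9, 14.9, 9.17 and 9.71 CPM in Sham. FT was higher in 4 of 4 pairs, by 1.43-, 1.52-, 1.56- and 1.69-fold, while the groups overlapped because the pools differed in their Sham level. The group means were 18.0 ± 3.59 in FT and 11.7 ± 2.73 in Sham (SD, n = 4). The edgeR log2 fold change was 0.63 ± 0.13, or 1.55-fold, with adjusted p = 0.121 (unadjusted p = 0.000773), and the fit called 0.00514% of transcripts higher. DESeq2 gave 0.64 with adjusted p = 0.00146, and called 5.45% of transcripts higher.

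Summed Grm3 was 58.8, 44.1, 52.5 and 49.4 CPM in FT replicates 1, 3, 4 and 5 and 65.7, 40.2, 90.8 and 81.6 CPM in Sham. FT was lower in replicate 1 (0.895-fold), higher in replicate 3 (1.10-fold) and lower in replicates 4 (0.578-fold) and 5 (0.606-fold). The replicate 1 sums include the CGC pair left out of the tests within regions. That pair gave 5662 of the 28698 Grm3 counts in Sham and 79 of the 19019 in FT. Whether replicate 1 stays lower without it was not tested. The group means were 51.2 ± 6.13 in FT and 69.6 ± 22.1 in Sham (SD, n = 4). The edgeR log2 fold change of -0.39 ± 0.18 was not called (adjusted p = 0.280), nor was it by any alternative run.

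**Figure D4:**
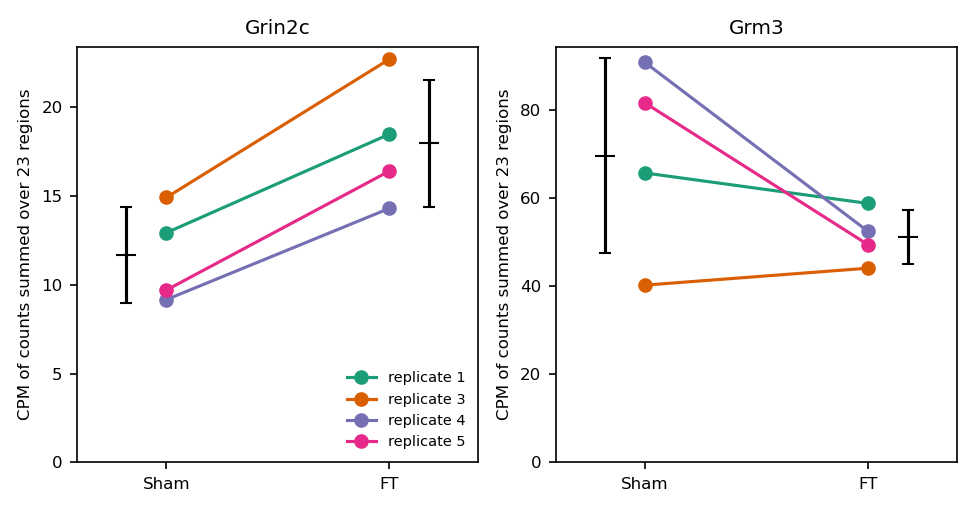
CPM of counts summed over 23 regions for Grin2c (left) and Grm3 (right), with a line joining the Sham and FT pool of each replicate number and, beside them, the group mean with bars of 1 SD (n = 4). All 4 lines rise for Grin2c. For Grm3 the lines of replicates 4 and 5 fall from 90.8 and 81.6 to 52.5 and 49.4, and those of replicates 1 and 3 change little.

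The other genes of glutamate signalling were taken from a list of 73 symbols, of which 30 had a named transcript, 28 besides Grin2c and Grm3. Since names came only from the study's list of changed transcripts, the genes found are not a fair sample of the pathway. Among receptors, the 5 others found were Grin3a, a glycine-binding NMDA receptor subunit, Grik3, a kainate receptor subunit, Grid1, a delta receptor, and Grm4 and Grm7, presynaptic metabotropic receptors that like mGlu3 couple to inhibitory G proteins. Grin3a was negative in 25 of 25 regions (median log2 fold change -0.41) and Grik3 in 22 of 22 (median -1.05). Grm7 was negative in 22 of 25 (median -0.45), and Grm4 positive in 20 of 25 (median 0.45). Of these receptors, edgeR called Grik3 lower in mPoA (-1.67 ± 0.51, adjusted p = 0.0320) and Arc (-1.88 ± 0.60, adjusted p = 0.0870), Grm4 higher in Arc (1.81 ± 0.44, adjusted p = 0.0495) and Grid1 lower in the raphe (-0.84 ± 0.23, adjusted p = 0.0866), where 3.51% of all transcripts were called lower. The NMDA receptor subunits found thus had medians of opposite sign, as did the metabotropic receptors.

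In mPoA, edgeR called 2 of the 28 list members higher and 8 lower, with a median log2 fold change of -0.15 against 0.01 over all 14886 transcripts, of which 722 (4.85%) were called higher and 706 lower. The members called higher were Slc7a10, a transporter of D-serine and glycine, and Calm3, a calmodulin gene. Those called lower were Camk2a and Camk2n1, the calcium-calmodulin kinase subunit and an inhibitor of that kinase, Dlg4, the postsynaptic scaffold PSD-95, Gnb2, a G protein beta subunit, Psat1, an enzyme of serine synthesis, Slc38a1 and Slc38a3, glutamine transporters, and Grik3. In Arc, 9 members were called higher and 7 lower, with a median of -0.07 against 0.02 over 14464 transcripts, of which 1988 (13.7%) were called higher and 1563 lower. Those higher included Calm2, Calm3, Gng13, Grm4, Lin7b, Nat8l, Slc25a18 and Slc7a10, and those lower Dlg4, Gnb2, Grik3, Psat1, Slc25a22, Slc38a1 and Slc38a3. The list did not move as a block in either region.

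In HB, VMH, BLA, PAG, LC and venDG, edgeR called 0 members in either direction. This is the background and no result about the list, since the same fits called 0 transcripts in HB, VMH, BLA, PAG and venDG and 3 (0.0235%, all higher) in LC. An unadjusted p under 0.05 was found for 8 of 28 members in HB, 10 of 27 in VMH and 10 of 28 in BLA. In PAG, LC and venDG it was found for 12 of 27, 9 of 26 and 10 of 28. The shares of all transcripts were 10.6%, 14.3%, 13.3%, 13.3%, 15.5% and 11.9% in the same order. Members had names only because the study listed them as changed in these samples, so a higher share among them was built in. DESeq2 called 3 higher and 1 lower in HB (Slc7a10, Gnai2 and Slc25a18 against Camk2a), 4 higher and 0 lower in VMH (Slc7a10, Nrgn, Calm3 and Gnai2), and 1 higher and 2 lower in BLA (Nrgn against Camk2a and Slc25a22). Of all transcripts, DESeq2 called 0.524% lower in HB, 1.52% lower in VMH and 1.12% lower in BLA, beside the shares called higher given above. It called 0 higher and 2 lower in PAG (Camk2a and Dlg4), 2 higher and 1 lower in venDG (Slc7a10 and Nrgn against Camk2n1), and 2 higher and 4 lower in LC (Calm2 and Lin7c against Dlg4, Gnb2, Gng13 and Slc38a1). The shares of all transcripts were 1.1% lower in PAG, 2.03% higher in venDG, and 4.32% higher and 2.88% lower in LC.

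Slc7a10, whose substrates are co-agonists of the NMDA receptor, had the highest median of the list (1.00), was positive in 25 of 25 regions and was called higher by edgeR in 2 regions and by DESeq2 in 14. Nrgn, a postsynaptic calmodulin-binding protein, was positive in 23 of 25 regions (median 0.87), and Calm3 in 25 of 25 (median 0.60). Dlg4 was negative in 25 of 25 regions (median -0.72) and Slc38a1 in 25 of 25 (median -1.05). Grin2c, at 0.59, and Grm3, at -0.43, lay inside the range of these medians.

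**Figure D5:**
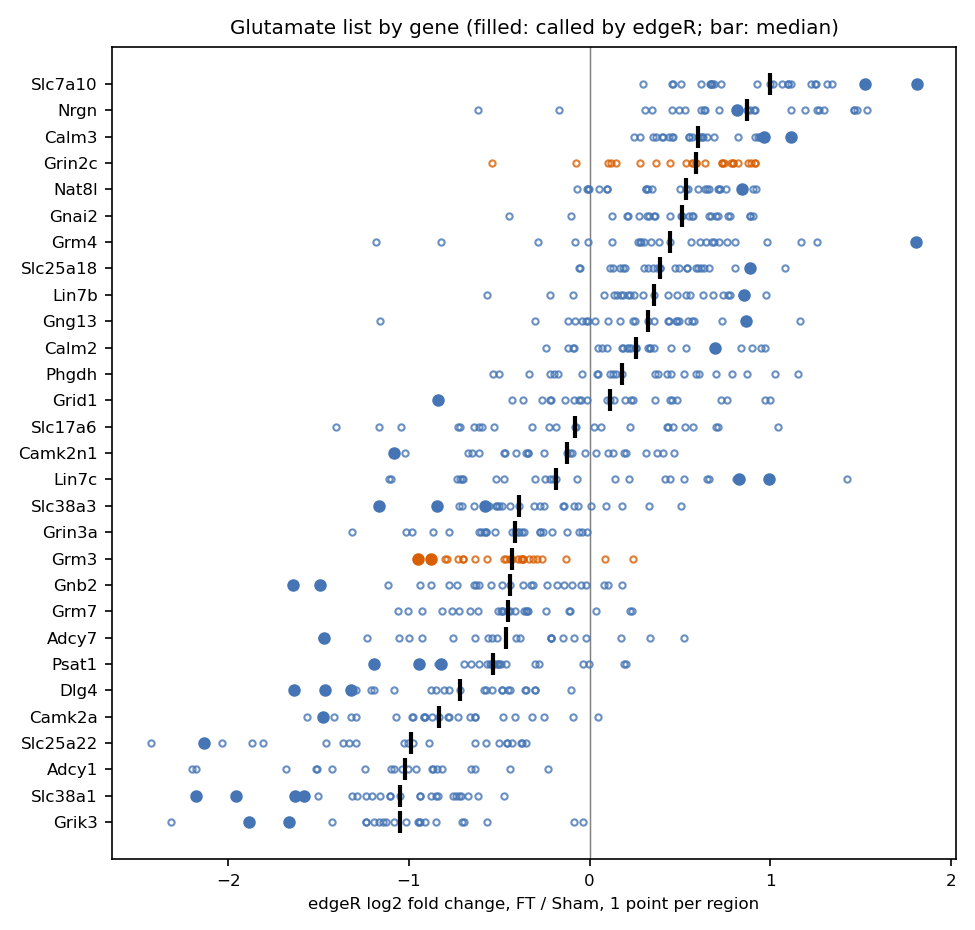
EdgeR log2 fold change of FT over Sham for the genes of the glutamate list that are reported here, with 1 point per region. Orange points are Grin2c and Grm3, filled points are regions called, and black bars are medians over regions. The medians run from -1.05 for Grik3 to 1.00 for Slc7a10.

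Because both receptors are found on astrocytes, the marker lists of the cell types that a punch can hold were followed beside them. The astrocyte list had 8 of 14 markers with a name (Agt, Apoe, Etnppl, Gja1, Kcnj10, Mt3, Slc6a11 and Slc7a10), of which the last is shared with the glutamate list. Their summed CPM was higher in FT in 13 of 22 pairs of replicate 1 and 19 of 23 of replicate 3, and lower in 24 of 25 pairs of replicate 4 and 16 of 25 of replicate 5, with median log2 differences of 0.17, 0.63, -0.47 and -0.11. The sum was carried by Mt3, Apoe, Agt and Gja1, with median levels of 1100, 453, 340 and 262 CPM, and the members did not move together. In replicate 4, Mt3 and Gja1 were lower in FT in 25 of 25 pairs each and Slc6a11 and Kcnj10 in 24, while Slc7a10 was higher in 25, Etnppl in 22, Agt in 17 and Apoe in 15. In VMH, the astrocyte sum ranged from 1487 to 43371 CPM in FT and from 1827 to 22767 CPM in Sham. The Arc sum ranged from 1797 to 39560 CPM in FT and from 1833 to 2015 CPM in Sham. Sham in Arc had replicates 4 and 5 only, so these 2 Arc ranges cover unlike replicate numbers. No astrocyte marker was at 0 in more than 4 of 194 samples, and no neuron or oligodendrocyte marker in more than 1.

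The oligodendrocyte list, with 10 of 16 markers found, was lower in FT in 24 of 25 pairs of replicate 4 (median -0.41) and in 17 of 25 of replicate 5 (median -0.13), and close to even in replicates 1 and 3 (medians 0.04 and -0.01). The neuron list, with 7 of 9 markers found, was higher in FT in replicates 1 and 3 (medians 0.48 and 0.50) and near 0 in replicates 4 and 5 (0.15 and -0.07). The microglia list (4 of 6) had medians of 0.28, 0.35, -0.19 and -0.27 in replicates 1, 3, 4 and 5, and the endothelial and mural list (3 of 6) medians of -0.34, 0.17, 0.34 and 0.40. The cerebellar granule cell list (4 of 5) had medians over regions of 0.010, 0.0048, 0.13 and 0.022, which do not show the differences in PAG, Arc and LC given above, with Cbln3 and Gabra6 passing the filter in 24 and 56 samples. The choroid plexus list (4 of 5) had medians of -0.03, -0.20, -0.99 and -0.36.

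Several lists thus moved with the replicate number, as Grm3 did. Over the 95 pairs, the Grm3 difference had a Spearman rho of 0.61 with that of the oligodendrocyte list and of 0.37 with that of the astrocyte list. With those of the microglia and the endothelial and mural lists rho was 0.40 and -0.47. The Grin2c difference had a rho of 0.39 with the astrocyte list, of 0.28 with the granule cell list and of -0.10 with the neuron list. Pearson r was 0.68 with the granule cell list, 0.69 with the endothelial and mural list and 0.61 with the microglia list. With the other lists it ran from 0.12 to 0.50. All of these include the Nts replicate 3 pair, whose Sham library carries no information. Grin2c stood at 6.21 in that pair, and the largest replicate 3 difference of the granule cell list was 6.23. Both values of a pair come from the same 2 libraries and share their scaling. The part of cell composition in the Grin2c and Grm3 differences was not tested.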

How the data were processed

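Per the labels, RNA from micro-punches went through a TruSeq Stranded Total RNA kit (the molecule field says polyA RNA) and was read in 76-base pairs on a HiSeq 2500. Per the study's processing notes, the authors used FastQC, STAR and HTSeq on the rat build rn5, with versions and counting mode not given in the sources used here. The deposited values are raw read counts per Ensembl transcript. Rows naming no transcript (no feature or ambiguous), a median of 29.3% to 52.7% of reads by group and replicate number, were left out.

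FT and Sham were compared within each region with edgeR 4.0.16 in R 4.3.3 (quasi-likelihood, TMM, filterByExpr, replicate number as block). As in the study, calls needed a 1.25-fold change or more and an adjusted p (Benjamini-Hochberg) no higher than 0.1. DESeq2 1.42.0 and limma 3.58.1 served as alternatives. Fits over all regions took the dispersion trend from every 10th transcript. FT and Sham of one number were processed in parallel, per the study's methods, and deviated together. All 91 pairs of 23 regions had r over 0.1, and the median of the region medians was 0.67. The CGC replicate 1 pair, taken to be the CGC samples that the study removed as outlying, entered only the summed counts and the filter and scaling of the CPM values printed for CGC.

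The members, gene lists and tests were chosen with earlier results of these data known. The regions named in the text are those where edgeR or DESeq2 called a gene and the region of the largest opposite change, and the transcripts most like each gene are the 5 with the highest r. The values of 1 gene of the glutamate list are not reported here, though its counts include that gene. The code was tested on simulated data.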

Additional observations from a re-analysis of the deposited data

Results flagged for a closer look

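In 5 of 96 groups of 4 samples, 1 sample stood apart from the other 3, and chance alone flags about 1 in 20 groups. For Grin2c these were replicate 1 of FT in HB (31.4 CPM, others 23.7 to 24.9), replicate 1 of Sham in ILC (18.2 CPM, others 4.89 to 6.19), replicate 3 of FT in InsularC, the insular cortex (15.9 CPM, others 10.9 to 11.6), and replicate 3 of Sham in LS, the lateral septum (26.5 CPM, others 11.2 to 13.0). For Grm3 it was replicate 1 of FT in PLC (97.7 CPM, others 64.9 to 67.7), a region where the blocked edgeR value was slightly positive (0.085 ± 0.36, SE) while the FT mean of 74.1 CPM lay below the Sham mean of 79.2 CPM.

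The response to FT differed between replicate numbers for Grm3 (adjusted p = 1.03e-12, edgeR) and for Grin2c (adjusted p = 0.0462, edgeR), in a test over 95 pairs whose p-values take regions of the same pools as separate. The 4 Grin2c values had one sign, while those of Grm3 lay near 0 in replicates 1 and 3 and near -0.8 in replicates 4 and 5.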

How the results depend on the processing

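The number of regions called depended on the tool. For Grin2c it was 0 with edgeR, 4 with DESeq2, 5 without the filter on low counts and 0 to 0 when a replicate was left out. For Grm3 it was 2 with edgeR, 1 with DESeq2, 4 without the filter, and 0 to 3 when a replicate was left out, being 0 without replicate 4 and without replicate 5, where mPoA and Arc keep 1 complete pair and were not fitted. The direction was steadier, with Grin2c higher in FT in 20 to 24 regions and Grm3 lower in 20 to 25 when a replicate was left out. Without replicate 4 or 5, these counts also lack mPoA and Arc. The small positive Grm3 change in LC turned negative without replicate 1 (-0.027) and without replicate 3 (-0.049), in a range of -0.049 to 0.55. The summed Grin2c change was called by DESeq2 (0.64), without the filter (0.63, adjusted p = 0.0278, edgeR) and by limma (0.62, adjusted p = 0.0991), and ranged from 0.58 to 0.67 when a replicate was left out, called without replicate 1 or 3 only. The difference between replicate numbers in the Grin2c response had adjusted p = 0.210 without Nts and ILC and 0.0238 to 0.249 when a replicate was left out (edgeR).

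Without the replicate block, which ignores the pairing, Grm3 was called in 0 regions, the Sham levels of Grm3 were not called different between regions (adjusted p = 0.160, edgeR) and its highest minus lowest region fell to 1.497 on the log2 scale (adjusted p = 0.150, edgeR). edgeR called Grin2c in 0 regions with and without the block, and the 4 DESeq2 calls of Grin2c were all lost without it. Of the 2 genes, Grin2c was counted less deeply, with a median of 166 counts per library against 806 for Grm3. The cause of these changes was not tested.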
